A study of Homo sapiens with 12 samples.

Results

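In 142 genes the libraries of honokiol-treated cells lay on opposite sides of the DMSO libraries in the acute myeloid leukemia cell lines THP-1 and U-937. FPKM, the unit of expression used here, counts fragments relative to transcript length and library size. The genes were chosen among 12343 that reached 0.5 FPKM in 3 or more of the 6 libraries of THP-1 cells and likewise of U-937 cells. A gene was chosen when its 3 honokiol libraries all lay above its 3 DMSO libraries in one line and all below them in the other. Of the 142 genes, 45 were higher with honokiol in THP-1 cells and lower in U-937 cells, and 97 were lower in THP-1 cells and higher in U-937 cells. The deposited table holds 36866 genes in all.

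THP-1 is a monocytic leukemia line and U-937 a line with features of immature monocytes. Honokiol is a biphenolic compound from the bark of Magnolia trees. Cells of each line received honokiol or 0.1% DMSO, its solvent, for 24 h, and poly(A) RNA of 3 libraries per line and treatment was sequenced. The labels list honokiol doses of 20 and 35 μM for the lines together, and if each line received its own dose, line and dose cannot be told apart. Each line stands for 1 established culture, the labels add only a complex karyotype, and nothing says that the 3 libraries of a group came from separate cultures, so the p-values measure only the spread between these libraries.

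The count sums of the 12 libraries ran from 57406966 to 75065752. The first DMSO library of each line stood apart, with 13.7% of its counts on mitochondrial genes in THP-1 cells and 12.6% in U-937 cells, against 5.61% to 7.55% in the other 10 libraries. Of 14 myeloid markers, 14 passed the FPKM limit in THP-1 cells and 13 in U-937 cells, where MPO averaged 0.0917 FPKM. Their summed level in U-937 cells was 1118 to 1496 FPKM with DMSO and 931 to 1112 FPKM with honokiol. Abundant markers weigh most in that sum. LYZ, ELANE and CEBPA (386, 370 and 131 FPKM on average there) had log2 fold changes of -0.88, -0.59 and -0.29. Among the markers that went the other way were ITGAM, FCGR1A, CSF1R and CD68, by 0.68, 0.36, 0.30 and 0.11. In THP-1 cells the summed level overlapped, at 1975 to 3020 FPKM with DMSO and 2787 to 3022 FPKM with honokiol. Of 8 T and NK cell markers, 2 passed the limit in THP-1 cells and 1 in U-937 cells. NKG7 averaged 17.4 FPKM in THP-1 cells and 163 FPKM in U-937 cells and carried the summed level of that list, which was 135 to 162 FPKM with DMSO and 156 to 208 FPKM with honokiol in U-937 cells, while CD3E had at most 0.04 FPKM in any library. Of 6 B cell markers, 4 passed in THP-1 cells, led by CD79B at 17.7 FPKM, and 3 in U-937 cells, and their summed level overlapped between the treatments in both lines. Of 7 stromal and endothelial markers, 3 passed the limit in THP-1 cells and 1 in U-937 cells, PECAM1, which myeloid cells also express. Their summed level overlapped between the treatments in THP-1 cells. In U-937 cells it was 12.9 to 17.6 FPKM with DMSO and 19.0 to 25.4 FPKM with honokiol. Of 7 erythroid and megakaryocytic markers, 2 passed in THP-1 cells and 0 in U-937 cells. The THP-1 sum of these was 2.6 to 3.29 FPKM with DMSO and 1.74 to 2.6 FPKM with honokiol. Of 6 epithelial markers, 1 passed in THP-1 cells and 0 in U-937 cells. The part of these markers in the results below was not tested.

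Opposite responses to one compound can concern genes of very different kinds. TXNIP encodes an inhibitor of thioredoxin and of glucose uptake, and its promoter is bound by the glucose-sensing factor MondoA with its partner MLX. FKBP4 is a co-chaperone of HSP90, CDC20 activates the anaphase-promoting complex in mitosis, E2F2 is a transcription factor of the G1/S transition, and FOXC1 is a forkhead factor that is active in part of acute myeloid leukemias. The promoters of 4 members with large or well-known changes are shown, 3 of the direction higher in THP-1 cells and TXNIP of the other. Each window holds 300 bases around a RefSeq transcript start (GRCh38.p14), read on the strand of the gene, with GGGCGG (the Sp1 box) in capitals for FOXC1 and MEX3A, CCAAT (the NF-Y box) for CDC20 and CACGAG (a part of the carbohydrate response element) for TXNIP, on either strand.
FOXC1, chr6:1609665-1609964, plus strand: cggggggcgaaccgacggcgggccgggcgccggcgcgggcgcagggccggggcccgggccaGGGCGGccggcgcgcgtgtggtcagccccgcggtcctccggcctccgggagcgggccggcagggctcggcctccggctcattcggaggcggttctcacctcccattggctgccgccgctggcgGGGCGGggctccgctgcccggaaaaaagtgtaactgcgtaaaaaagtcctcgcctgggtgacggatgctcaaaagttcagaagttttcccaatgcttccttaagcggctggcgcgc
MEX3A, chr1:156082416-156082715, minus strand: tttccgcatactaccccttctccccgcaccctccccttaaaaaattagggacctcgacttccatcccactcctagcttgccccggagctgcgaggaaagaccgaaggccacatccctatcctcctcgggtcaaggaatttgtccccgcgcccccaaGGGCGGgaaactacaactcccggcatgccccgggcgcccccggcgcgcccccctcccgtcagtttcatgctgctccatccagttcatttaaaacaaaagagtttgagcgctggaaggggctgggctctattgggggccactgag
CDC20, chr1:43358731-43359030, plus strand: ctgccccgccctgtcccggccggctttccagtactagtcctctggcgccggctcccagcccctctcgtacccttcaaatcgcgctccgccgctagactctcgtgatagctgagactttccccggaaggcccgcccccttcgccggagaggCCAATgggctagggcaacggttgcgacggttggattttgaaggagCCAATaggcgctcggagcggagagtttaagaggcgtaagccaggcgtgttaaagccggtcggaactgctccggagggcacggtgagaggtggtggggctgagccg
TXNIP, chr1:145996530-145996829, minus strand: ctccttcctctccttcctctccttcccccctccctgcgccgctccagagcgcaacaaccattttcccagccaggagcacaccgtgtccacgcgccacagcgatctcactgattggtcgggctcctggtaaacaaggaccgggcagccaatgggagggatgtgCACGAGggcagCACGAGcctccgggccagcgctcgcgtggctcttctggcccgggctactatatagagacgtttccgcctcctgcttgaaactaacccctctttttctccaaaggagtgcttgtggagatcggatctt

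The FOXC1 window had 72.7% GC and 40 CpG dinucleotides, and the CDC20 window 64.7% and 28. The MEX3A and TXNIP windows both had 60.3% GC, with 18 and 19 CpG dinucleotides. The MEX3A window held 1 Sp1 box, the FOXC1 window 2, and the CDC20 window 2 NF-Y boxes 5′ of its start. These boxes were not particular to the windows in which they are marked. The CDC20 window also held 2 Sp1 boxes and 1 CACGAG. NF-Y boxes numbered 2 in the FOXC1 window, 1 in the MEX3A window and 2 in the TXNIP window shown. In the TXNIP window 2 copies of CACGAG stood 5 bases apart. A pair with that spacing, searched on both strands after the sequence had been seen, was present in 2 of the 12324 windows of the tested genes. A second TXNIP window, at chr1:145995695-145995994, held no CACGAG and no CACGTG.

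The share of genes chosen was 1.15% of those tested, 0.365% for the genes higher in THP-1 cells and 0.786% for the genes lower in THP-1 cells. By the same rule 482 genes (3.91%) were higher with honokiol in both lines and 155 (1.26%) lower in both. The rule used these values, so the counts are a description. With counts scaled by TMM in place of FPKM, the rule chose 139 genes, 62 higher and 77 lower in THP-1 cells, and with DESeq2 size factors 136 genes, 65 higher and 71 lower. In bulk RNA, fewer cells with a transcript and less transcript per cell cannot be told apart.

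Most changes were small. Among the 45 genes higher in THP-1 cells, the median log2 fold change in edgeR was 0.27 in THP-1 cells and -0.44 in U-937 cells, against medians of 0.00 in both lines over all tested genes. The 97 genes lower in THP-1 cells had medians of -0.38 and 0.35. The log2 fold change exceeded 1 in either direction for 6 of the 142 genes in THP-1 cells and for 5 in U-937 cells. Of the 142 genes, 8 differed by at least 0.5 on the log2(FPKM + 0.5) scale in each line, 2 of them higher and 6 lower in THP-1 cells. In 36 genes the treatments were separated by 0.05 FPKM or less in at least 1 line, and the smallest gap was 0.01 FPKM. Among them were HERC6 (0.04 FPKM), ZDHHC18 and TCTA (0.05 FPKM each) in THP-1 cells. In U-937 cells ZNF74 (0.04 FPKM) and RPL23AP53 (0.03 FPKM) were among them. EXOC6, a subunit of the exocyst, was chosen on FPKM but had a fitted log2 fold change of -0.03 in U-937 cells.

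**Figure D1:**
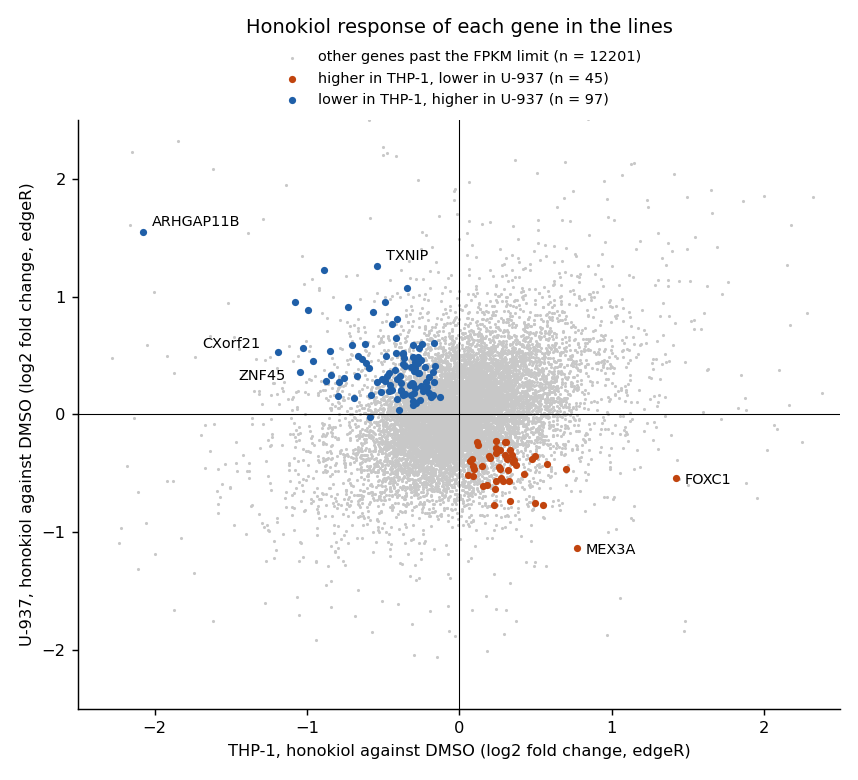
Log2 fold change of each tested gene with honokiol in THP-1 cells (x axis) and U-937 cells (y axis), from edgeR. The 45 and 97 chosen genes lie at the lower right and upper left, apart from EXOC6 just below 0 in U-937 cells, and most lie close to the origin; 30 genes lie outside the axes.

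The difference between the lines, tested in edgeR's quasi-likelihood test over all 12343 genes, reached a Benjamini-Hochberg adjusted p under 0.05 for 0% of them, with a smallest adjusted p of 0.0573. An unadjusted p under 0.05 was found for 1148 genes (9.3%), and DESeq2 gave 107 genes with an adjusted p under 0.05. Among the chosen genes 133 of 142 had an unadjusted p under 0.05, but they were chosen on this contrast, so this says nothing more about them.

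A DEG, as the study's methods define it, passes an adjusted p of 0.05 and changes by more than 1 on the log2 scale. In THP-1 cells 27 genes (0.219%) were DEGs in edgeR, of which FOXC1 and ZNF45 were among the 142. In U-937 cells 72 genes (0.583%) were DEGs, of which TXNIP was among the 142. No gene of the 142 was a DEG in both lines. Leaving out 1 library moved the THP-1 count to between 2 (without honokiol library 2 of THP-1) and 73 (without honokiol library 1 of THP-1), and the U-937 count to between 9 (without honokiol library 3 of U-937) and 91 (without DMSO library 1 of THP-1).

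The genes are described by role, in groups formed after the values had been seen and not tested for enrichment, starting with those higher in THP-1 cells. FOXC1 (ENSG00000054598, chr6:1609915-1613897, plus strand) measured 0.46, 0.69 and 0.59 FPKM with DMSO and 1.51, 1.94 and 1.37 FPKM with honokiol in THP-1 cells. Its U-937 values were 7.4, 6.71 and 5.87 FPKM with DMSO and 4.98, 5.26 and 4.53 FPKM with honokiol. The treatments did not overlap in either line, and every U-937 library lay above every THP-1 library. The log2 fold change was 1.42 ± 0.20 (SE, 3 libraries per group here and below) in THP-1 cells and -0.54 ± 0.19 in U-937 cells.

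MEX3A (ENSG00000254726, chr1:156072013-156082465, minus strand), an RNA-binding protein, had the opposite order of levels. Its THP-1 libraries held 3.83, 6.2 and 6.61 FPKM with DMSO and 9.2, 8.33 and 11.54 FPKM with honokiol. With DMSO the U-937 libraries held 2.79, 1.75 and 2.48 FPKM, and with honokiol 1.2, 1.49 and 0.76 FPKM. The lowest THP-1 value was the first DMSO library, and the log2 fold changes were 0.77 ± 0.26 and -1.14 ± 0.27.

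SUV39H1, a methyltransferase for lysine 9 of histone H3, read 3.81, 3.23 and 2.78 FPKM with DMSO and 4.36, 5.31 and 5.53 FPKM with honokiol in THP-1 cells. The U-937 libraries read 20.22, 15.8 and 14.51 FPKM with DMSO and 13.2, 14.42 and 13.18 FPKM with honokiol, so that the third DMSO library lay just above the second honokiol library. Of the other chromatin and zinc finger genes of this direction, MIER2 had log2 fold changes of 0.42 ± 0.14 in THP-1 cells and -0.51 ± 0.14 in U-937 cells. For the zinc finger genes ZNF74 and ZNF48 the THP-1 values were 0.70 ± 0.23 and 0.48 ± 0.17, and the U-937 values -0.46 ± 0.23 and -0.38 ± 0.17. JARID2, a subunit of Polycomb repressive complexes, showed 0.27 ± 0.13 and -0.54 ± 0.13. THAP4, a protein with a THAP zinc finger, had 0.28 ± 0.12 and -0.57 ± 0.13, and POLRMT, the RNA polymerase of mitochondria, 0.33 ± 0.15 and -0.57 ± 0.15.

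The next genes act in protein folding and translation. FKBP4 (ENSG00000004478, chr12:2794970-2805423, plus strand) held 27.87, 30.89 and 32.8 FPKM with DMSO and 39.42, 38.14 and 41.38 FPKM with honokiol in THP-1 cells. In U-937 cells the order turned, with 49.8, 63.47 and 60.22 FPKM in the DMSO libraries and 39.75, 37.22 and 34.82 FPKM in the honokiol libraries. With honokiol the lines thus came to nearly the same level, and the log2 fold changes were 0.33 ± 0.11 and -0.73 ± 0.11. FKBP4 was the 1 chosen gene among 26 tested HSP90 co-chaperones and heat shock proteins, of which 4 were higher and 2 lower with honokiol without overlap in THP-1 cells, and 0 higher and 5 lower in U-937 cells. Over all tested genes these shares were 12.4% and 8% in THP-1 cells and 17% and 7.75% in U-937 cells.

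The list of chaperonin (CCT) and prefoldin subunits, which fold actin and tubulin, was added after the values had been seen. PFDN2 and CCT6A were chosen among its 14 tested genes, against 1.15% of all tested genes. As the list was made after these genes were known, the count says nothing more about it. PFDN2 read 74.87, 89.34 and 79.76 FPKM with DMSO and 106.81, 107.59 and 106.13 FPKM with honokiol in THP-1 cells. Its U-937 values were 76.92, 100.29 and 97.76 FPKM against 74.85, 72.4 and 74.95 FPKM, where the first DMSO library lay only just above the honokiol libraries. CCT6A changed mainly in U-937 cells, with log2 fold changes of 0.06 ± 0.12 and -0.52 ± 0.12. The median log2 fold change of the 14 genes was 0.07 in THP-1 cells and -0.39 in U-937 cells.

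VARS1, the cytosolic valyl-tRNA synthetase, was the 1 chosen gene of 20 such synthetases, with 0.32 ± 0.11 and -0.48 ± 0.11. With VARS1 counted, 11 of the 20 were higher with honokiol and 1 lower without overlap in THP-1 cells. In U-937 cells 9 were higher and 3 lower, and 7 were higher in both lines. The shares of all tested genes were 12.4% and 8% in THP-1 cells, 17% and 7.75% in U-937 cells, and 3.91% higher in both. EIF3G, a subunit of a translation initiation factor, showed 0.20 ± 0.10 and -0.36 ± 0.10. EIF3CL and HSP90AB3P have near-identical copies with which reads may be shared, which was not measured here, so their values are uncertain. EIF3CL had 0.09 ± 0.14 and -0.52 ± 0.14, while its copy EIF3C, which was not chosen, had -0.06 ± 0.16 and -0.21 ± 0.16. The pseudogene HSP90AB3P had 0.23 ± 0.17 and -0.77 ± 0.17, and HSP90AB1, at 801 FPKM on average in THP-1 cells, 0.11 ± 0.13 and -0.58 ± 0.13.

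CDC20 was among the most abundant genes of this direction. It held 140.11, 150.25 and 129.28 FPKM with DMSO and 168.35, 183.11 and 209.07 FPKM with honokiol in THP-1 cells. The U-937 libraries held 143.11, 132.79 and 115.93 FPKM with DMSO and 105.17, 92.05 and 115.73 FPKM with honokiol. In U-937 cells the separation was 0.2 FPKM between the third libraries, and the log2 fold changes were 0.37 ± 0.15 and -0.43 ± 0.15. CDC20 was the 1 chosen gene of 41 tested mitosis and spindle genes. TKT, the transketolase of the pentose phosphate pathway, had 0.35 ± 0.14 and -0.38 ± 0.14. ANKRD13B, an ankyrin repeat protein, had 0.55 ± 0.18 and -0.77 ± 0.18, and ZDHHC18, a palmitoyltransferase, 0.50 ± 0.24 and -0.75 ± 0.24.

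TXNIP led the genes that were lower in THP-1 cells and higher in U-937 cells by the size of its difference at a high level. TXNIP (ENSG00000265972, chr1:145992435-145996579, minus strand) held 42.01, 47.92 and 49.36 FPKM with DMSO and 36.4, 30.72 and 31.38 FPKM with honokiol in THP-1 cells. The U-937 libraries held 3.6, 5.64 and 4.93 FPKM with DMSO and 9.31, 12.6 and 14.47 FPKM with honokiol. All THP-1 libraries stayed above all U-937 libraries, although the distance between the lines shrank with honokiol. The log2 fold changes were -0.54 ± 0.18 and 1.26 ± 0.18. Among the 8 tested genes of the list of TXNIP, alpha-arrestins and MondoA-MLX it was the 1 chosen gene. ARRDC3, another alpha-arrestin, was higher with honokiol in both lines, by 0.51 ± 0.17 and 2.05 ± 0.18.

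**Figure D2:**
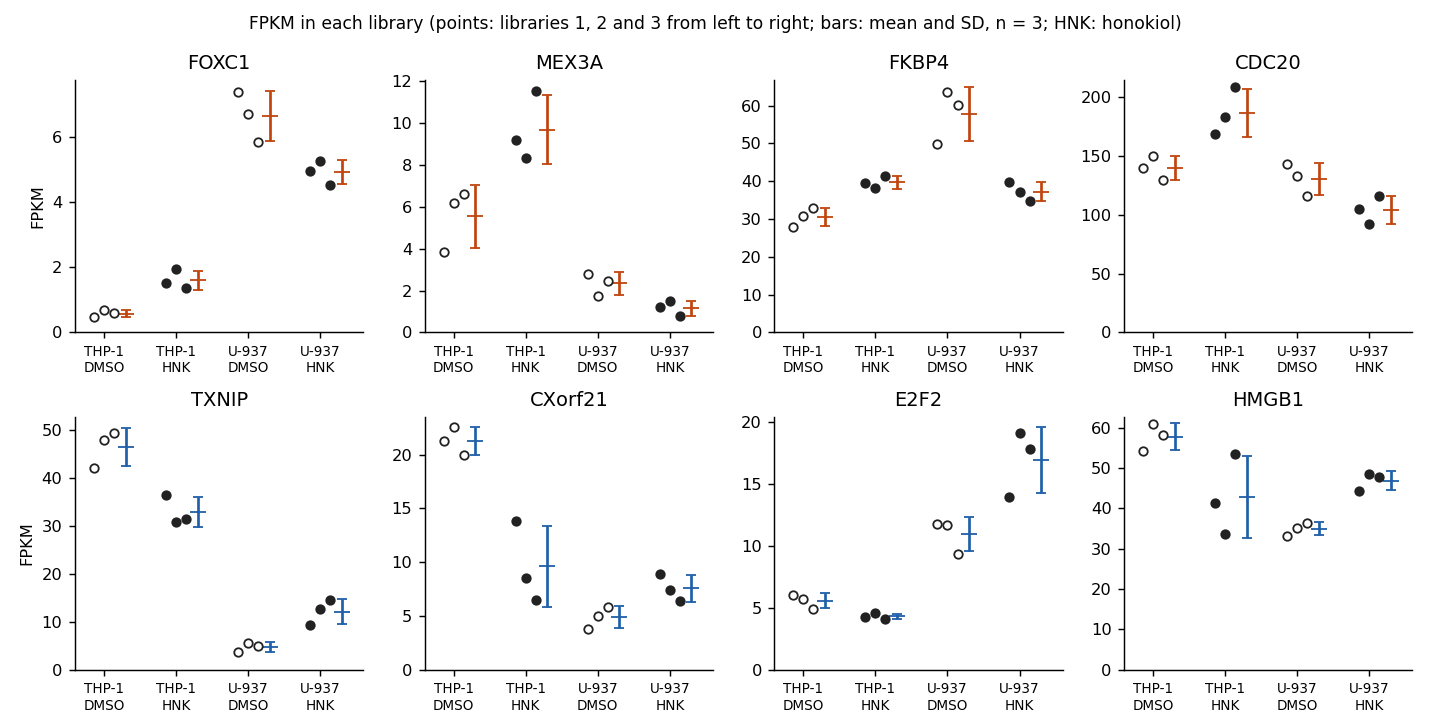
FPKM of 8 chosen genes in each library (points, libraries 1, 2 and 3 from left to right), with the mean and SD of the 3 libraries of a group beside them. FOXC1, MEX3A, FKBP4 and CDC20 were higher with honokiol (HNK) in THP-1 cells and lower in U-937 cells, and TXNIP, CXorf21, E2F2 and HMGB1 the reverse.

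CXorf21 and HERC6 act in innate immunity. CXorf21, an adaptor of endosomal Toll-like receptors, read 21.27, 22.56 and 19.99 FPKM with DMSO and 13.82, 8.55 and 6.46 FPKM with honokiol in THP-1 cells. U-937 cells showed 3.8, 5.01 and 5.88 FPKM with DMSO and 8.93, 7.39 and 6.36 FPKM with honokiol. The honokiol libraries of both lines thus overlapped in level, and the log2 fold changes were -1.19 ± 0.25 and 0.53 ± 0.25.

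HERC6, an interferon-stimulated gene, was low in every library. It had 1.24, 1.22 and 0.99 FPKM with DMSO and 0.81, 0.79 and 0.95 FPKM with honokiol in THP-1 cells, and 0.58, 0.55 and 0.32 FPKM against 1.01, 1.18 and 0.85 FPKM in U-937 cells. It was the 1 chosen gene of 26 tested interferon-stimulated genes. Of these, 16 were higher and 2 lower with honokiol without overlap in U-937 cells, against 3 and 3 in THP-1 cells. Of all tested genes 17% were higher and 7.75% lower in U-937 cells, and 12.4% and 8% in THP-1 cells. The median log2 fold change of the 26 genes was 0.51 in U-937 cells and -0.11 in THP-1 cells. CD244, a receptor of the SLAM family, had -0.25 ± 0.15 and 0.46 ± 0.15.

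The following genes act in DNA replication, chromatin or cell division. E2F2 held 6.05, 5.74 and 4.9 FPKM with DMSO and 4.28, 4.55 and 4.1 FPKM with honokiol in THP-1 cells. Its U-937 libraries held 11.79, 11.67 and 9.36 FPKM with DMSO and 13.95, 19.09 and 17.81 FPKM with honokiol. The distance between the lines therefore grew with honokiol, with log2 fold changes of -0.42 ± 0.17 and 0.52 ± 0.16. E2F2 was the 1 chosen gene of 40 tested genes of DNA replication and S phase. Without overlap, 0 of the 40 were higher and 12 lower in THP-1 cells, against 12.4% and 8% of all tested genes. In U-937 cells 5 were higher and 6 lower, against 17% and 7.75%.

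STIL, which is needed for centriole duplication, read 13.36, 9.71 and 8.4 FPKM with DMSO and 7.08, 7.8 and 7.21 FPKM with honokiol in THP-1 cells. In U-937 cells its DMSO libraries were close together at 4.17, 4.19 and 4.09 FPKM, and its honokiol libraries read 9.54, 9.51 and 5.43 FPKM. SKA1, a kinetochore protein, had log2 fold changes of -0.41 ± 0.27 and 0.81 ± 0.27. NCAPG, a condensin subunit, showed -0.39 ± 0.14 and 0.27 ± 0.14, and the cohesin subunit SMC3 -0.30 ± 0.14 and 0.08 ± 0.14. Both belong to a list of 17 condensin and cohesin genes that was added after the values had been seen. They were its 2 chosen genes, against 1.15% of all tested genes. TOPBP1, a scaffold of the replication checkpoint, had -0.30 ± 0.13 and 0.12 ± 0.13, and USP1, a deubiquitinase of DNA repair, -0.31 ± 0.14 and 0.27 ± 0.14.

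HMGB1, an abundant chromatin protein, held 54.28, 61.04 and 58.15 FPKM with DMSO and 41.3, 33.54 and 53.59 FPKM with honokiol in THP-1 cells. The third honokiol library came within 0.69 FPKM of the first DMSO library. In U-937 cells the values were 33.27, 35.2 and 36.42 FPKM with DMSO and 44.28, 48.61 and 47.82 FPKM with honokiol, well apart. The histone variant gene H2AZ2 moved less, by -0.22 ± 0.12 and 0.27 ± 0.12, and ENSA, an inhibitor of the phosphatase PP2A in mitosis, by -0.17 ± 0.10 and 0.17 ± 0.10.

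ZNF45, a KRAB zinc finger gene, was the other DEG of THP-1 cells. Its THP-1 libraries held 3.22, 2.93 and 4.12 FPKM with DMSO and 1.86, 1.7 and 1.56 FPKM with honokiol, and its U-937 libraries 1.82, 1.67 and 1.87 FPKM against 2.32, 2.61 and 2.47 FPKM. The log2 fold changes were -1.05 ± 0.17 and 0.36 ± 0.17. FBXO28, a substrate receptor of a ubiquitin ligase, had -1.02 ± 0.31 and 0.56 ± 0.31. Of the glycosyltransferases, ST3GAL6 had -0.76 ± 0.20 and 0.31 ± 0.20 and GALNT4 -0.64 ± 0.18 and 0.47 ± 0.18. GALNT4 lies on the same strand within POC1B, which was higher in both lines. C11orf45 showed -0.34 ± 0.30 and 1.07 ± 0.30, and TCTA -0.62 ± 0.27 and 0.60 ± 0.27.

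The largest fitted difference belonged to ARHGAP11B, a partial copy of the RhoGAP gene ARHGAP11A, and rested in part on 1 library. It had 4.02, 0.73 and 1.19 FPKM with DMSO and 0.55, 0.54 and 0.39 FPKM with honokiol in THP-1 cells. In U-937 cells it had 1.2, 0.93 and 1.59 FPKM with DMSO and 4.62, 4.38 and 2.71 FPKM with honokiol. Its log2 fold changes were -2.08 ± 0.54 and 1.55 ± 0.52, against -0.27 ± 0.27 and 0.00 ± 0.27 for ARHGAP11A, so the split of reads between the copies is uncertain. The same holds for the pseudogenes HMGN2P5 (-0.51 ± 0.15 and 0.19 ± 0.15) and RPL23AP53 (-0.84 ± 0.29 and 0.33 ± 0.29), whose parent genes HMGN2 and RPL23A were not chosen.

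**Figure D3:**
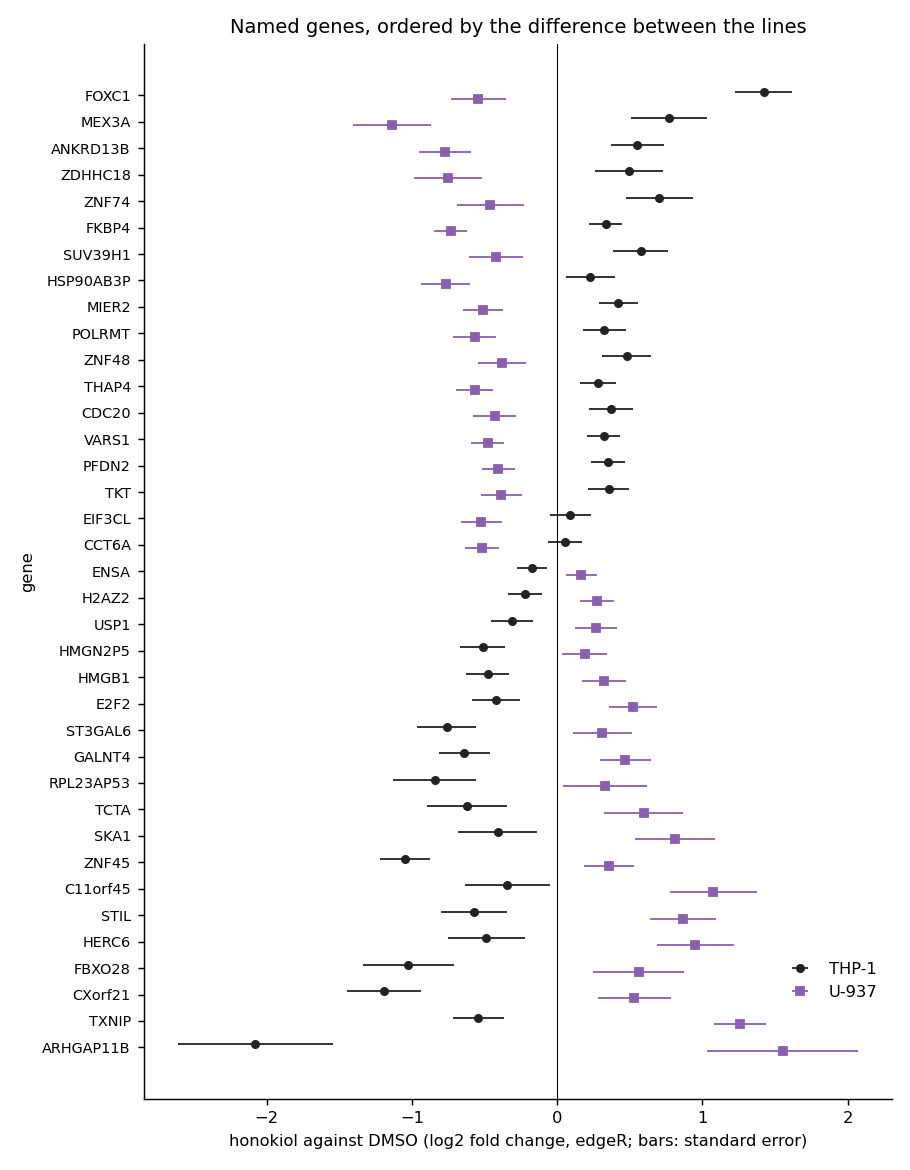
Log2 fold change with honokiol (edgeR, bars: standard error) of the 37 named genes in THP-1 cells (circles) and U-937 cells (squares), ordered by the difference between the lines. FOXC1 had the most negative difference and ARHGAP11B the most positive one.

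Across the 26 gene lists, 9 of 661 tested genes were chosen (1.36%), close to the 1.15% of all tested genes. These were FKBP4, CDC20, TKT (NRF2 targets), VARS1 and FOXC1 (HOXA cluster and leukemic stem cell program) in one direction and TXNIP, E2F2, HERC6 and H2AZ2 in the other. The other 17 lists held no chosen gene, among them glycolysis, ribosome biogenesis, the unfolded protein response, iron handling, lysosome and autophagy, oxidative phosphorylation and p53 targets. The ATF4 amino acid and stress program had no chosen gene among 27, while 11 were higher without overlap in THP-1 cells, 19 in U-937 cells and 9 in both. The shares of all tested genes were 12.4%, 17% and 3.91%.

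The level of a gene in the lines, averaged over both treatments, was tested in edgeR. The rule used the level only through the FPKM limit in each line, which all tested genes had passed. A level difference was called at an adjusted p under 0.05 and an absolute log2 difference over 1. Of all tested genes, 1305 (10.6%) were higher in U-937 cells and 1458 (11.8%) in THP-1 cells. Of the 45 genes higher with honokiol in THP-1 cells, 5 were higher in U-937 cells and 4 in THP-1 cells, together 20.0%, near the 22.4% of all genes. Of the 97 genes of the other direction, 6 were higher in U-937 cells and 21 (21.6%) in THP-1 cells.

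FOXC1 was higher in U-937 cells by 2.46 ± 0.14 on the log2 scale (edgeR adjusted p = 3.37e-08), and SUV39H1 by 1.78 ± 0.14 (adjusted p = 3.5e-07). MEX3A was lower in U-937 cells, at -2.26 ± 0.19 (adjusted p = 8.03e-07), and TXNIP at -2.48 ± 0.13 (adjusted p = 1.78e-08). E2F2 was higher in U-937 cells by 1.36 ± 0.12 (adjusted p = 9.05e-07) and CXorf21 lower, at -1.35 ± 0.18 (adjusted p = 3.5e-05). In FOXC1, SUV39H1, MEX3A, TXNIP and E2F2 every library of one line lay above every library of the other, and in CXorf21 the lines overlapped. The level differences of GALNT4 (-0.02 ± 0.12), SKA1 (-0.20 ± 0.19) and HMGN2P5 (0.11 ± 0.11) did not pass the test.

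GC content differed between the directions. The median GC of the longest annotated transcript, protein coding where there was one, was 54.7% for the genes higher in THP-1 cells and 43.1% for the genes lower in THP-1 cells, against 49.0% for all tested genes. When all tested genes were divided by GC into 5 equal bins, the lowest bin held 0 genes of the first direction and 36 of the second, and the highest held 13 and 0. The median log2 fold change of all genes in U-937 cells went from 0.15 in the lowest bin to -0.14 in the highest, and in THP-1 cells from -0.01 to 0.05.

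The same slope separated libraries. In the first DMSO library of THP-1 cells log2 CPM (TMM scaling) fell by 0.20 per 10 points of GC relative to the mean of all 12 libraries. In the first DMSO library of U-937 cells it rose by 0.17, while the other 10 libraries lay between -0.07 and 0.08. The first DMSO libraries are those with the high mitochondrial share. Without both of them the rule is easier to meet and chose 416 genes, 150 higher and 266 lower in THP-1 cells, whose median GC was 50.3% and 47.1%. With the trend of GC and length removed from the log2 CPM values of each library, it chose 142 genes, 76 higher and 66 lower in THP-1 cells, and 69 of the original 142 were among them. The part of GC content in the opposite responses was not tested beyond these values.

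**Figure D4:**
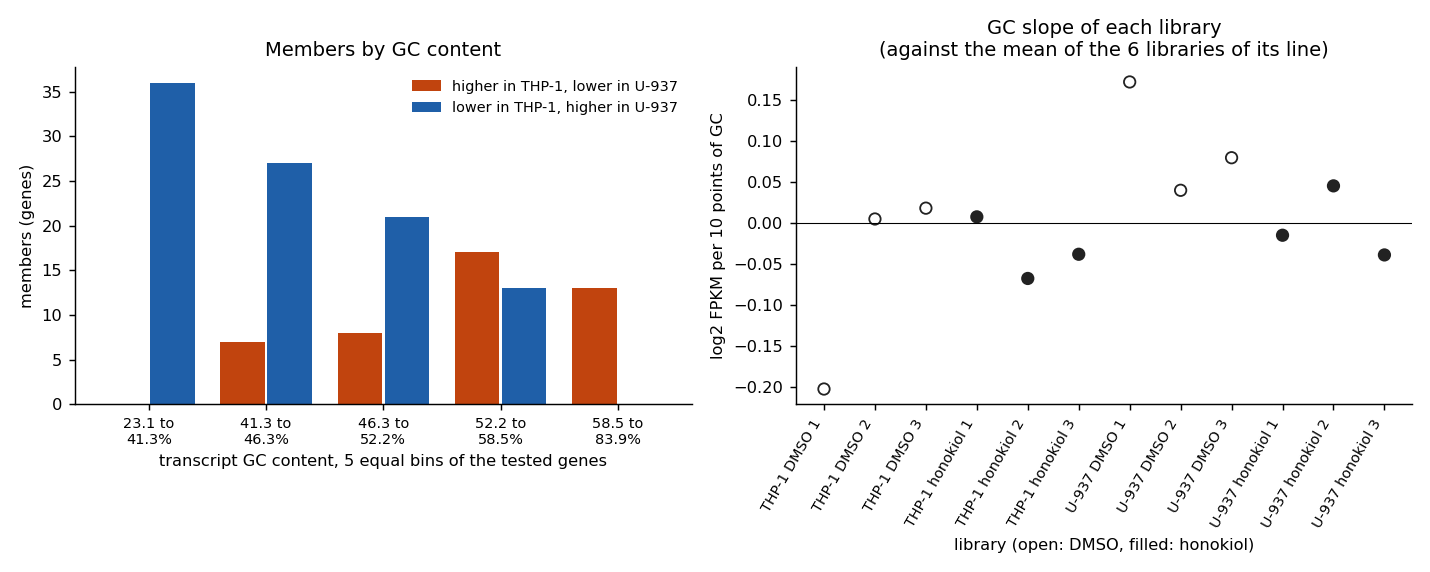
Left, number of chosen genes of each direction in each of 5 equal bins of the tested genes by transcript GC content. Right, slope of log2 CPM (TMM scaling) on GC content in each library relative to the mean of all 12 libraries. The first DMSO libraries of THP-1 (-0.20) and U-937 (0.17) lie farthest from 0. The labels in the panel name FPKM and the line instead.

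Of the 142 genes, 48 were chosen again under each of 4 other scalings of the values (TMM, DESeq2 size factors, FPKM without mitochondrial genes, and GC and length trend removed), and 22 under none of them. FOXC1, MEX3A, FKBP4, PFDN2, VARS1, POLRMT and MIER2 were among the 20 such genes higher in THP-1 cells. Among the 28 lower in THP-1 cells were TXNIP, CXorf21, E2F2, STIL, ZNF45, HERC6, NCAPG and ARHGAP11B. Once the GC and length trend was removed, ANKRD13B, ZDHHC18, ZNF74, SUV39H1, THAP4, CDC20, EIF3G, FBXO28, GALNT4, ST3GAL6, HMGB1 and TOPBP1 were no longer chosen, although they were under the other 3 scalings. H2AZ2 was chosen under 2 of the 4 scalings without the trend removal among them, and TKT, USP1 and SMC3 likewise under 1. CCT6A and HSP90AB3P were chosen only with the trend removed, and EIF3CL, RPL23AP53 and EXOC6 under none of the 4.

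Over the genes of each direction, the median deviation from the mean of the line on the log2(FPKM + 0.5) scale ran from -0.18 in the first THP-1 DMSO library to 0.20 in the third THP-1 honokiol library for the 45 genes. For the 97 genes it was 0.19 in the first THP-1 DMSO library and 0.21 in the second U-937 honokiol library. The first THP-1 DMSO library was the DMSO library farthest from the honokiol libraries in 51.1% of the 45 genes and 52.6% of the 97 genes. In U-937 cells the first DMSO library held that place for 33.3% and 42.3%.

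**Figure D5:**
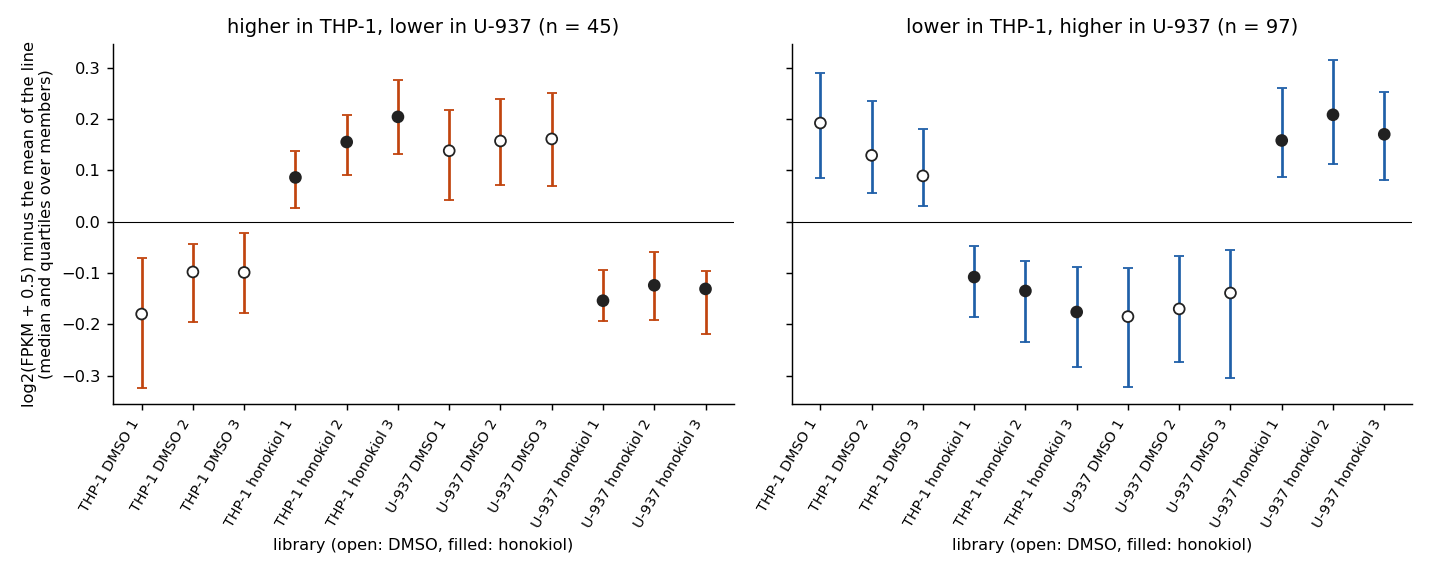
Median (points) and quartiles (bars) over the chosen genes of log2(FPKM + 0.5) minus the mean of the 6 libraries of the line, for the 45 genes higher (left) and the 97 genes lower (right) in THP-1 cells with honokiol. The rule fixes the side of each group, and the first THP-1 DMSO library lies farthest out among the THP-1 DMSO libraries.

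Among the chosen genes 97.8% of the first direction and 88.7% of the second were annotated as protein coding, against 83.2% of all tested genes. A gene on the same strand overlapped 33.1% of the 142 and 31.4% of all tested genes. Promoter windows were found for 98 of the 142 genes (141 windows). The median GC of the windows was 69.7% for the genes higher in THP-1 cells and 62.0% for the others, against 65.0% for all tested genes. GGGCGG was present on either strand in 78.3% of the windows of the first direction, 61.1% of the second and 67.4% of all. CCAAT was found in 39.1%, 41.1% and 35%, and the E-box CACGTG in 6.52%, 7.37% and 9.75%. The paired heat shock element letters GAANNTTC stood in 6.52%, 4.21% and 4.74%, and TTCNNGAA in 4.35%, 6.32% and 6.13%. CACGAG, searched after the TXNIP sequence had been seen, stood in 17.4% of the windows of the first direction, 9.47% of the second, which holds TXNIP, and 8.54% of all. These shares describe letters in the windows, not bound sites.

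The genes nearest to the FPKM limit are given by the third-highest FPKM of their weaker line. Just inside it were IFITM3P6 (0.51 FPKM), ERRFI1 (0.58), ZNF701 (0.59) and LY6G5C (0.61). Just outside were IQCG (0.49 FPKM), AL513477 (0.48), PRRT3 (0.44) and TAS2R14 (0.43), which otherwise met the rule.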

How the data were processed

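Poly(A) RNA of 12 libraries, 3 per line and treatment, was taken as the authors deposited it. The authors' estimated counts are whole numbers per gene without normalization, and the deposited FPKM values, with 2 decimals, were normalized by the authors to transcript length and library size. The submitters' processing notes name Bowtie 0.12.2, HISAT2 2.0 and StringTie 1.3.0 with a mouse build, but the deposited coordinates are human: 22439 of the 35762 genes found in GENCODE 29 (GRCh38) have the same start and end. The value 4 occurs 17264 times in the table, against 6764 times for 3 and 4016 times for 5, so that 1 fragment may often give 4 counts and the count sums may overstate depth. Whether counting used the strand is not given in the sources used here, so a gene and an overlapping gene on the other strand may share reads. GEO's design text speaks of a microarray, although the values come from sequencing.

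Opposite genes were chosen on FPKM in all 12 libraries. edgeR 4.0.16 (quasi-likelihood test, TMM, 8 residual degrees of freedom, no term for the replicate) was fitted once to the counts of all 12343 genes, with Benjamini-Hochberg adjustment. Each SE was derived from the fold change and its F statistic. R 4.3.3, limma 3.58.1, DESeq2 1.42.0, Python 3.11.15 and pandas 2.3.3 were used, and the fit was tested on simulated data.

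The members and the 26 gene lists were chosen with earlier results of these data known, and 4 lists, the GC check and the fits without both first DMSO libraries were added after the values were seen. Added lists not described above were EIF3 subunits and RNA polymerase III. The EIF3 list held 2 chosen genes of 14 tested, both higher in THP-1 cells. The RNA polymerase III list held 2 of 11, 1 in each direction, against 1.15% of all tested genes. Named genes were, in each direction, the 12 with the largest difference among those with a mean of at least 1 FPKM in each line and a symbol, the 5 most abundant and all members on a list, together 37 genes. The genes nearest to the FPKM limit are named besides. JARID2, EIF3G, CD244, NCAPG, SMC3, TOPBP1 and EXOC6 and the grouping of genes by role were chosen after their values were seen. Promoter windows came from RefSeq and were matched by symbol for 8579 of the tested genes. Within groups, Pearson's r between libraries was 0.961 to 0.980 on log2 values. Alternatives covered the scaling, the FPKM limit, the pseudocount, the tool, the replicate block and each library left out.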

Additional observations from a re-analysis of the deposited data

Results flagged for a closer look

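Each result here is flagged because honokiol moved it one way in the 3 honokiol libraries of THP-1 cells and the other way in those of U-937 cells, which is the rule that chose the genes. The 45 genes higher in THP-1 cells and the 97 genes lower in THP-1 cells are flagged as groups, and the 37 named genes singly. In edgeR's test of the difference itself no gene reached an adjusted p under 0.05 (smallest 0.0573), although 1148 of 12343 had an unadjusted p under 0.05 and DESeq2 gave 107 at an adjusted p under 0.05. Of the 142 genes, 22 were chosen under none of 4 other scalings of the values.

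The difference of log2 fold changes, U-937 minus THP-1, was -1.97 for FOXC1, -1.91 for MEX3A, -1.32 for ANKRD13B, -1.25 for ZDHHC18, -1.16 for ZNF74 and -1.07 for FKBP4. It was -0.995 for SUV39H1, -0.99 for HSP90AB3P, -0.93 for MIER2, -0.89 for POLRMT, -0.86 for ZNF48 and -0.85 for THAP4. Smaller differences were measured for CDC20 (-0.80), VARS1 (-0.80), PFDN2 (-0.75), TKT (-0.74), EIF3CL (-0.61) and CCT6A (-0.57).

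In the other direction the difference was 3.63 for ARHGAP11B, 1.80 for TXNIP, 1.72 for CXorf21, 1.59 for FBXO28, 1.44 for HERC6 and 1.44 for STIL. It was 1.42 for C11orf45, 1.40 for ZNF45, 1.22 for SKA1, 1.22 for TCTA, 1.17 for RPL23AP53, 1.11 for GALNT4 and 1.07 for ST3GAL6. E2F2 (0.94), HMGB1 (0.80), HMGN2P5 (0.70), USP1 (0.58), H2AZ2 (0.50) and ENSA (0.34) had smaller differences. Without THP-1 DMSO library 1, in which ARHGAP11B was highest, its difference was 2.50.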

How the results depend on the processing

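Among the results tested and named, the level difference of GALNT4, -0.02 and not called, changed sign under 8 alternatives (up to 0.087), and no other named gene changed the sign of its difference between the lines or of its level. The count of opposite genes depends on how strict the rule is. It was 142 and became 8 (2 higher and 6 lower in THP-1 cells) with a log2 change of at least 0.5 in each line, and 416 (150 and 266) without both first DMSO libraries. Leaving out 1 library makes the rule easier to meet by construction and gave 186 to 281 genes, 58 to 104 of them higher and 122 to 206 lower in THP-1 cells, with 140 to 142 of the original genes kept. The highest count came without THP-1 DMSO library 1 and the lowest without THP-1 honokiol library 3. After removal of the GC and length trend 76 genes were higher and 66 lower in THP-1 cells, so that the larger group changed, and 69 of the 142 were kept, against 90 with TMM scaling. The cause of these changes was not tested.

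The difference between the lines was called for 0 genes in edgeR, 107 in DESeq2, 18 without an FPKM limit (1908 at an unadjusted p under 0.05), 1 without both first DMSO libraries and 0 to 3 with 1 library left out. DEGs of THP-1 cells numbered 27 in edgeR, 144 in DESeq2, 16 in limma-trend on log2(FPKM + 1), 17 with an FPKM limit of 1, 9 without both first DMSO libraries and 2 to 73 with 1 library left out. DEGs of U-937 cells numbered 72 in edgeR, 160 in DESeq2 and 9 to 91 with 1 library left out. Level calls numbered 2763, 1773 in limma-trend on log2(FPKM + 1), where 21 of the 142 genes were called in place of 36, and 8305 without an FPKM limit, where more genes were tested. The level calls of ARHGAP11B, ENSA and THAP4 were lost under 9, 8 and 3 alternatives, since their log2 differences lie close to 1.

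The labels name no pairing of the samples by replicate number. Deviations from the group mean correlated at -0.21 to 0.12 for same-numbered DMSO and honokiol libraries. For differently numbered libraries they correlated at -0.13 to 0.27. With 3 libraries per group the deviations depend on each other, so these values cannot decide whether samples were paired. With a replicate block, which compares same-numbered libraries only, the rule chose 414 genes (146 and 268), and edgeR called 0 genes for the difference, 4 DEGs in THP-1 cells and 2 in U-937 cells.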
